A study of Mus musculus with 152 samples.

Results

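Srebf1, Srebf2, Scap, Insig1, Insig2, Mylip and Stard4 were followed in mouse liver as the genes that encode the regulators of the sterol regulatory element-binding proteins (SREBPs), a brake on lipoprotein uptake and a sterol carrier. They were taken by symbol and role, as 7 of the 54532 genes of the deposited tables, and all 7 passed the filter on low values at every feeding duration.

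SREBPs are transcription factors that are made as membrane proteins of the endoplasmic reticulum. When sterols are scarce, the escort protein SCAP carries them to the Golgi, where they are cleaved and freed to enter the nucleus, and when sterols are plentiful the INSIG proteins hold SCAP and its cargo back. SREBP-2, the product of Srebf2, mainly drives genes of cholesterol synthesis and uptake, and SREBP-1c, a product of Srebf1, mainly drives fatty acid synthesis in liver. Mylip, also known as Idol, encodes a ubiquitin ligase that sends lipoprotein receptors to lysosomes and is induced by the oxysterol receptor LXR. Stard4 encodes a soluble protein that carries cholesterol between membranes.

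The livers came from mice of the inbred strain C57BL/6J. From 8 weeks of age the animals ate either LIDPAD, which is used to bring on non-alcoholic fatty liver disease, or a control diet made of purified ingredients. Feeding lasted 1, 4, 8, 12, 16, 32 or 48 weeks, and each of these weeks had its own control group, so that 14 groups shared strain, tissue and starting age and carried no engineered allele and no drug. The labels list 152 samples, of which blocks of 4 differed no more than parts of a single library would (the chi-square per gene was 1.97 to 2.27 inside a block and at least 2.54 across blocks), so each block was counted as 1 library. This gave 18 control and 20 LIDPAD libraries: 2 of each diet at weeks 1, 4, 8 and 12, 3 of each at week 16, 4 of control and 5 of LIDPAD for week 32, 3 of control and 4 of LIDPAD for week 48. The labels do not tie libraries to separate animals, so that the p-values rest on a spread between libraries that may be technical.

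Levels are given in FPM, the deposited unit, in which gene counts are divided by a size factor and scaled to 1000000. Each week has a table of its own that may have been normalized separately, so tests stay within weeks and levels set side by side across weeks are a description. Depth was 10.9 to 53.8 M reads per library (M, 1000000). The way reads were split over the columns of a library gave 3 sets of libraries, 1 with weeks 1 to 12, 1 with week 16 and part of week 32, and 1 with the rest of week 32 and week 48, so early weeks and the first set cannot be told apart. Control library 3 of week 48 stood apart from control libraries 1 and 2 (chi-square per gene 35.3 and 35.8, against 7.92 between those), and LIDPAD libraries 4 and 5 of week 32 were much alike (2.91, against 17 to 32.5 for the other pairs of that group, and 3.06 to 4.75 between the week 48 LIDPAD libraries of the same set). All 8 hepatocyte markers were present in every group. Their sum was lower in LIDPAD than in control libraries without overlap at every week other than week 32. At week 32 LIDPAD libraries ran from 37678 to 111889 FPM. Groups also did not overlap for 42.1 to 57.6% of all genes tested at weeks 1 to 12. Of the 8 markers, 0, 0, 1, 2, 4, 3 and 3 were called lower (limma, adjusted p under 0.05) from week 1 to week 48, and none higher. The share of all genes called lower was 1.27, 0.166, 1.75, 6.25, 12.0, 8.82 and 3.34% in those weeks. In bulk liver, fewer cells of a type and less RNA per cell cannot be told apart.

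The sequences upstream of 3 of the genes are shown because Insig1 and Srebf2 fell together with the sterol synthesis enzymes while Mylip rose late. They are RefSeq promoter windows of GRCm38.p6, plus strand, read from 250 bases before the RefSeq start and cut at the first base of the GENCODE gene. Capitals mark matches, on either strand, to the GC box GGGCGG, to the letters CCAAT of the box named after them, and to the E-box CACGTG.
Insig1, chr5:28071162-28071362: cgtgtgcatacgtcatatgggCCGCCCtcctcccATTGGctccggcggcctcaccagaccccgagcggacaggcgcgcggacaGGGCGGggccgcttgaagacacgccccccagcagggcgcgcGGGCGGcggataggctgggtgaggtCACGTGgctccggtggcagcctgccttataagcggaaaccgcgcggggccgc
Srebf2, chr15:82147019-82147180: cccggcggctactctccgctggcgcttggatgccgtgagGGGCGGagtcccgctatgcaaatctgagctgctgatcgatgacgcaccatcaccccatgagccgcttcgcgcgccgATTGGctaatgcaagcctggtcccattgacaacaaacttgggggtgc
Mylip, chr13:45389492-45389741: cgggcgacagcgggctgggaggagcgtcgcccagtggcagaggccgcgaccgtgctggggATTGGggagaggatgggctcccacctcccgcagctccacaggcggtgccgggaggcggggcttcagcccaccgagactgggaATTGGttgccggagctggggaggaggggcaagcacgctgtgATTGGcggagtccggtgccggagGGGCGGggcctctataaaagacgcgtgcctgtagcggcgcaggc

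Over the 250 bases before the RefSeq starts, 6 of the 7 genes had 11 windows in all. The Insig1 window held 3 GC boxes, a CCAAT box and an E-box, the Srebf2 window 4 GC boxes and a CCAAT box, and the Mylip window 3 CCAAT boxes and a GC box. These are common letters, present in 32.7% (GC box), 33.8% (CCAAT box) and 6.02% (E-box) of 32851 windows of the same length. The sterol regulatory element was searched as TCACNCCAC, held by 1.05% of windows and by none of the 11, and in the looser form CACNNCAC, held by 13.5%. The looser form matched 3 overlapping times in the Insig1 window, 9 to 19 bases before the RefSeq start, in the stretch GTGTAGTGTCGTGGCGTG (chr5:28071393-28071410), which lies inside the GENCODE gene. It matched once in a window of Insig2 and in no window of Srebf1, Srebf2, Scap or Mylip. A match is a run of letters and not a measured binding site. Elements that depart from these patterns by a letter are missed, so a window without a match may still hold one.

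The diets differed most steadily in Insig1, Stard4, Srebf2 and Scap, which were lower in LIDPAD livers in the mean at all 7 weeks. Mylip was level between the diets at weeks 1 and 4 and rose at weeks 16, 32 and 48. Srebf1 was higher in the mean at all 7 weeks but passed the test only at week 8, and Insig2 passed it only at week 16, where it rose. With limma on log2(FPM + 0.5) and adjustment over all genes of a week, 24 of the 49 gene-by-week comparisons were called at an adjusted p under 0.05, 19 lower and 5 higher.

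**Figure D1:**
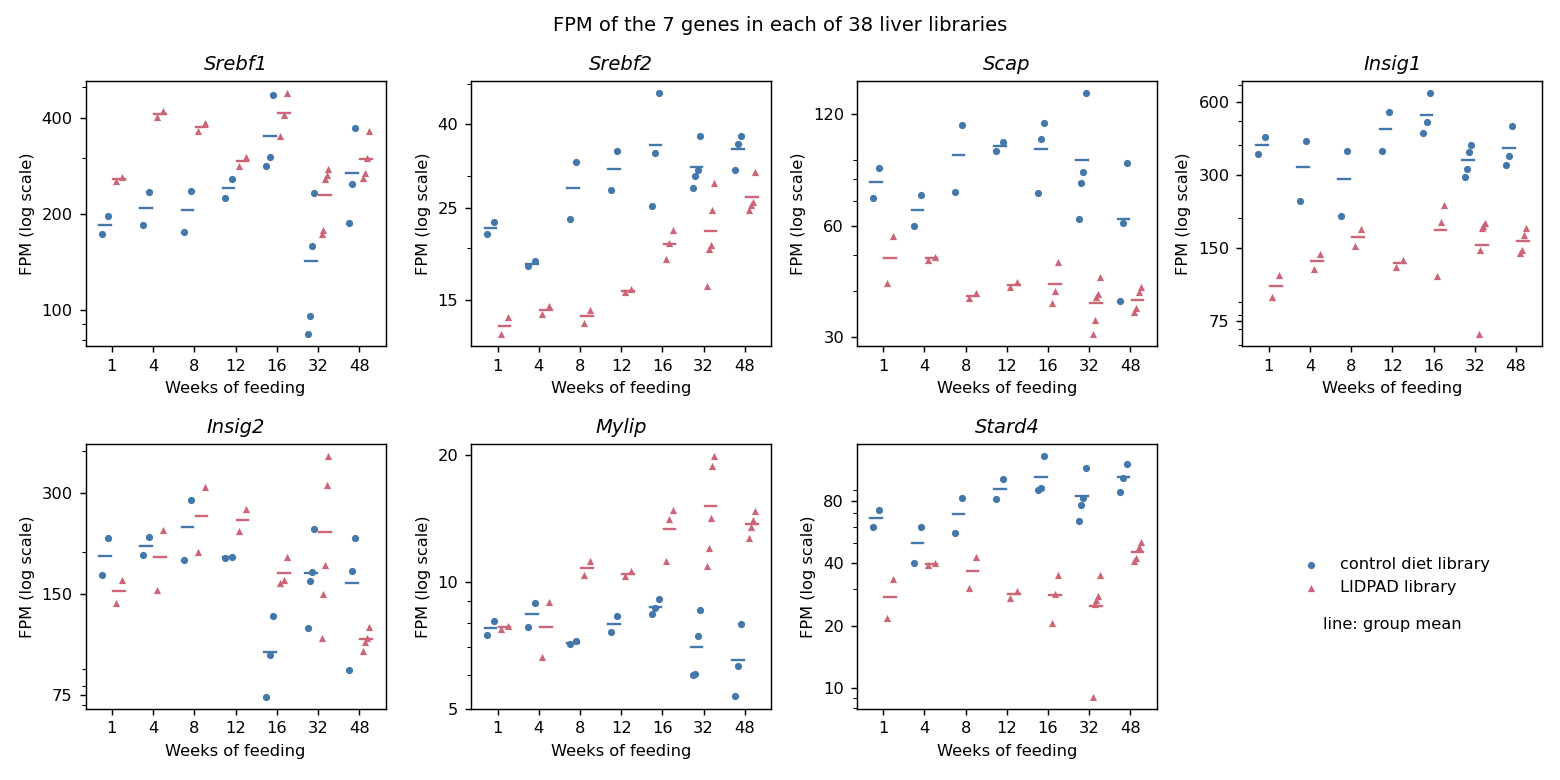
Level of each gene in FPM (log axis) in every library, by weeks of feeding; circles are control and triangles LIDPAD libraries, and lines are group means. The circles of Insig1 and Stard4 lie above the triangles at all 7 weeks, while the triangles of Mylip lie above its circles from week 8 on.

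From week 1 to week 48, 3, 0, 3, 4, 6, 5 and 3 of the 7 genes were called, while 1.99, 0.287, 5.6, 15.2, 28.2, 26.9 and 9.87% of all genes tested were called in those weeks. Called lower were 3, 0, 2, 4, 4, 4 and 2 of the 7, against 1.27, 0.166, 1.75, 6.25, 12.0, 8.82 and 3.34% of all genes. Called higher were 0, 0, 1, 0, 2, 1 and 1 of the 7, against 0.726, 0.121, 3.85, 8.99, 16.3, 18.0 and 6.54%. At week 4, where none was called by limma, 4 of the 7 had an unadjusted p under 0.05, edgeR also called none, and DESeq2 called 2. The groups did not overlap for 6, 5, 6, 7, 6, 4 and 4 of the genes, against 48.5, 42.1, 55.4, 57.6, 43.2, 25.8 and 24.8% of all genes tested. The median log2 change of the 7 genes was -0.68, -0.31, -0.73, -0.95, -0.74, -0.53 and -0.46, while that of all genes tested stayed between -0.01 and 0.04. Scaling each library to a total of 1000000 moved that overall median up by 0.11 at week 8 and by 0.19 to 0.29 at weeks 12 to 48, and the changes below are those relative to the authors' size factors. With that scaling Srebf2 was no longer called at week 16 (-0.53) and week 32 (-0.23), while calls appeared for Srebf1 at week 32 (1.09), Insig2 at week 12 (0.57) and Mylip at weeks 8 (0.67) and 12 (0.57).

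**Figure D2:**
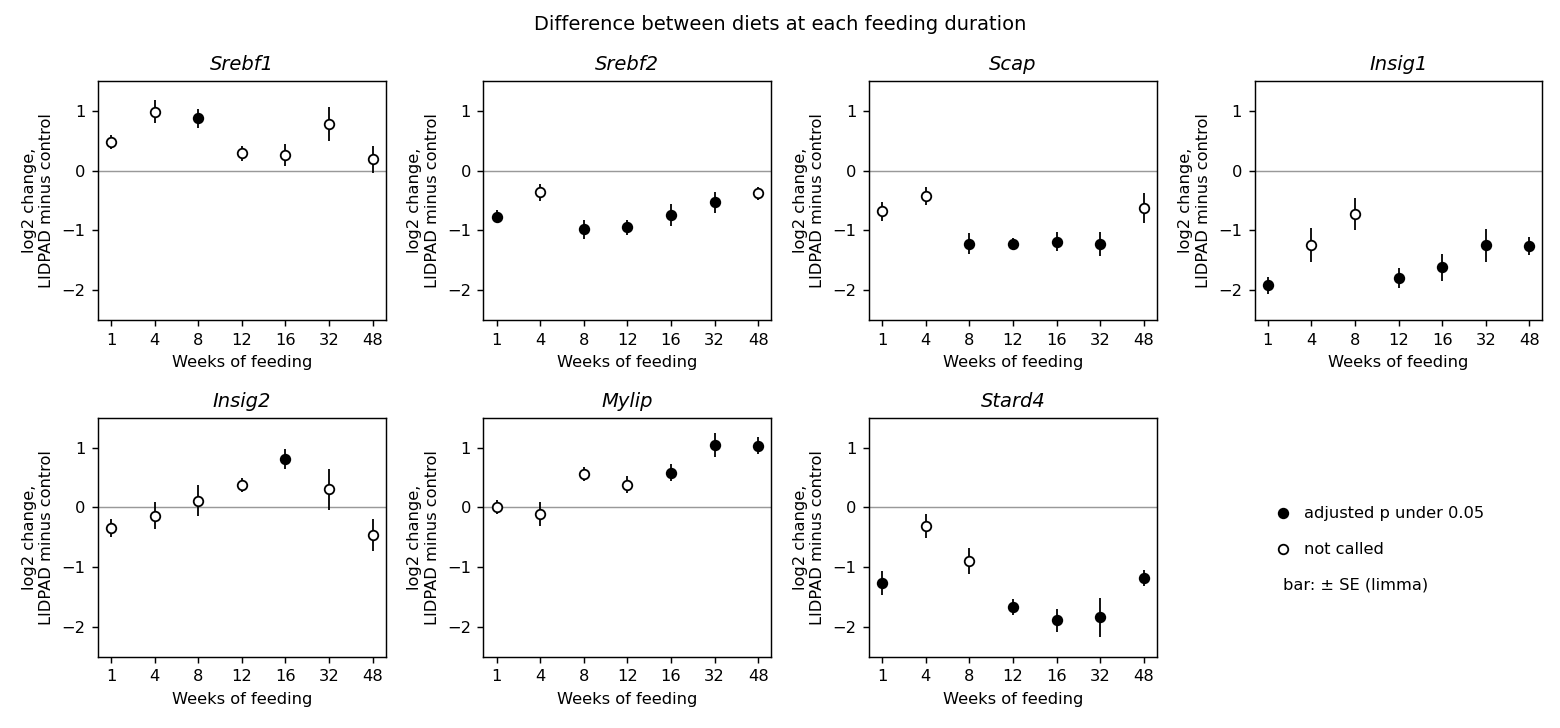
Log2 change of LIDPAD against control at each week of feeding, with bars of 1 limma standard error; filled points have an adjusted p under 0.05. Srebf2, Scap, Insig1 and Stard4 lie below 0 at every week, and Mylip climbs from 0.01 at week 1 to 1.04 at week 32.

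Srebf2 (ENSMUSG00000022463, chr15:82147181-82205379, plus strand of GRCm38), which encodes SREBP-2, fell at weeks 1, 8, 12, 16 and 32. At week 1 the control libraries had 21.7 and 23.1 FPM and the LIDPAD libraries 12.4 and 13.6 FPM, a log2 change of -0.77 ± 0.11 (SE, adjusted p = 0.0206). At week 8 control had 23.5 and 32.4 FPM and LIDPAD 13.2 and 14.2 FPM, the lowest change of the series at -0.98 ± 0.16 (adjusted p = 0.0238). At week 12 control had 27.7 and 34.4 FPM and LIDPAD 15.7 and 15.9 FPM (-0.95 ± 0.13, adjusted p = 0.00245). In each of these early weeks every LIDPAD library was below every control library, and the LIDPAD libraries of weeks 1 to 12 stayed within 12.4 to 15.9 FPM. With 2 libraries a group, the week 1 call was lost without either control library (changes of -0.72 and -0.81) and the week 8 call without either LIDPAD library (-0.93 and -1.03).

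The Srebf2 gap was smallest at week 4, where control had 18.1 and 18.6 FPM and LIDPAD 13.9 and 14.5 FPM (-0.36 ± 0.14, adjusted p = 0.422). From week 12 to week 48 it narrowed in the fitted values. Week 16 control libraries had 25.3, 34.1 and 47.5 FPM and LIDPAD libraries 18.8, 20.6 and 22.1 FPM (-0.74 ± 0.19, adjusted p = 0.0124), a call lost without LIDPAD library 3, at -0.68. Week 32 control libraries had 28, 29.9, 30.9 and 37.3 FPM and LIDPAD libraries 16.2, 19.9, 20.4, 24.7 and 28.8 FPM (-0.53 ± 0.17, adjusted p = 0.0364). Week 32 was the only week in which the groups overlapped, through the LIDPAD library at 28.8 FPM, and the call held in only 3 of the 9 fits that left out 1 library (those without LIDPAD library 1 or 3 or control library 4), with changes of -0.43 to -0.63, and was lost when LIDPAD libraries 4 and 5 were counted as 1 (-0.51). At week 48 control had 31.0, 35.8 and 37.4 FPM and LIDPAD 24.8 to 30.6 FPM, a gap without overlap that missed the threshold (-0.38 ± 0.11, adjusted p = 0.0652) and passed it without control library 3, at a change of -0.32. The change did not differ between weeks in a joint fit (F = 1.7, adjusted p = 0.368).

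Srebf1 (ENSMUSG00000020538, chr11:60199089-60222581, minus strand) was counted as a whole gene, so that the transcripts for SREBP-1a and SREBP-1c were not separated. At week 4 control libraries had 185 and 234 FPM and LIDPAD libraries 404 and 421 FPM, a log2 change of 0.99 ± 0.19 that did not pass the test (adjusted p = 0.13). At week 8 control had 176 and 236 FPM and LIDPAD 364 and 386 FPM (0.88 ± 0.16, adjusted p = 0.0284). Week 8 was the only week with a call, and that call was lost when either LIDPAD library was left out (0.92 and 0.84). At week 4 a call appeared when either control library was left out (1.16 and 0.82), and at week 1 when either LIDPAD library was (0.45 and 0.50). The groups did not overlap at weeks 1, 4, 8 and 12 and overlapped at weeks 16, 32 and 48.

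The control level of Srebf1 moved between weeks as much as the diet difference did, from a mean of 143 ± 68.3 FPM (SD, n = 4) at week 32 to 352 ± 104 FPM (n = 3) at week 16. At week 32 the control libraries ranged from 83.8 to 232 FPM and the LIDPAD libraries from 173 to 277 FPM (0.78 ± 0.29, adjusted p = 0.067). At week 48 the change was 0.19 ± 0.23, and without control library 3 it was -0.04. A call also appeared without control library 2 at week 16 (0.49) and without control library 1 at week 32 (1.06). At week 12 the change was 0.39 without control library 2, in a fit where only the LIDPAD pair gave a spread between libraries. Srebf1 shares 109 exon bases with Rai1 on the opposite strand, and the strand setting of the counting is not given in the sources used here. Rai1 itself had 4.67 to 12.5 FPM. The clock genes Arntl and Dbp also differed between the diets: log2 Arntl minus log2 Dbp was lower in LIDPAD livers by a mean difference of -4.29, -4.78, -3.86 and -3.2 at weeks 1 to 12 and of -0.81, -1.01 and -2.41 at weeks 16, 32 and 48, and the part of this in any of the 7 genes was not tested.

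Set against each other per length of exon, the 2 SREBP genes diverged. The ratio of Srebf1 to Srebf2 was 6.91 to 16.5 in the control libraries of weeks 1 to 12 and 22.8 to 37.0 in the LIDPAD libraries of those weeks, with no overlap in any of the 4 weeks. The ratio was not tested, and groups did not overlap for 42.1 to 57.6% of single genes in these weeks of 2 libraries a group. At week 4, for example, it was 12.7 and 16.5 with control diet and 37.0 in both LIDPAD libraries. At week 16 it was 7.6 to 23.8 against 21.7 to 27.8, at week 32 2.86 to 9.59 against 7.88 to 20.9, and at week 48 6.39 to 15.4 against 12.8 to 15.4, each with overlap.

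Scap (ENSMUSG00000032485, chr9:110333288-110384950, plus strand), the escort of both SREBPs, fell at weeks 8, 12, 16 and 32, with log2 changes of -1.19 to -1.23. In the weeks without a call it was lower by less. At week 12 control libraries had 95.5 and 101 FPM and LIDPAD libraries 40.8 and 42.1 FPM (-1.23 ± 0.10, adjusted p = 0.000174). At week 16 control had 73.3, 103 and 114 FPM and LIDPAD 37.1, 40 and 47.8 FPM (-1.19 ± 0.16, adjusted p = 0.000261). At week 32 control had 62.6, 78.3, 84.0 and 137 FPM and LIDPAD 30.5, 33.3, 38.5, 39.2 and 43.6 FPM (-1.23 ± 0.20, adjusted p = 0.00149). No LIDPAD library reached the lowest control library in any of these weeks.

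At week 1 the Scap groups were also apart, at 71.2 and 85.9 FPM against 42.0 and 56.3 FPM. They were at 59.9 and 72.5 FPM against 48.5 and 49.3 FPM at week 4. These changes of -0.68 and -0.43 missed the threshold (adjusted p = 0.099 and 0.373). The Scap change did not differ between weeks in the joint fit (F = 1.86, adjusted p = 0.323). At week 48 control libraries had 37.4, 61.0 and 88.7 FPM and LIDPAD libraries 34.9, 35.9, 39.6 and 40.9 FPM (-0.63 ± 0.25, adjusted p = 0.15). The lowest of those controls was library 3, and without it the change was -0.95 and was called. The week 8 call was lost when either LIDPAD library was left out (-1.20 and -1.24), and a week 1 call appeared when either was (-0.89 and -0.47). Scap shares 985 exon bases with 5830462I19Rik on the opposite strand, a gene with at most 1.45 FPM.

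Insig1 (ENSMUSG00000045294, chr5:28071363-28078662, plus strand) encodes the INSIG protein that is itself a target of SREBPs, and it showed the largest single change of the 7 genes. At week 1 control libraries had 366 and 430 FPM and LIDPAD libraries 94.7 and 116 FPM, a log2 change of -1.92 ± 0.14 (adjusted p = 0.00167), which is 3.78-fold lower. At week 12 control had 378 and 546 FPM and LIDPAD 126 and 134 FPM (-1.80 ± 0.17, adjusted p = 0.000306). At week 16 control had 448, 495 and 651 FPM and LIDPAD 115, 192 and 226 FPM (-1.62 ± 0.22, adjusted p = 0.000326). The LIDPAD libraries of these 3 weeks did not reach the lowest control library, which was already apart after the shortest feeding.

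At week 32 control libraries had 295, 317, 374 and 398 FPM and LIDPAD libraries 66.6, 147, 182, 185 and 191 FPM (-1.25 ± 0.28, adjusted p = 0.00785). At week 48 control had 330, 358 and 476 FPM and LIDPAD 143, 148, 170 and 182 FPM (-1.26 ± 0.15, adjusted p = 0.00704). Again no LIDPAD library overlapped with control. In the remaining weeks the gap was smaller against a wide control spread: 235 and 414 FPM against 123 and 142 FPM at week 4 (adjusted p = 0.188, with a call without control library 1 at -0.83 and without control library 2 at -1.65), and 204 and 376 FPM against 153 and 180 FPM at week 8 (adjusted p = 0.155). At week 8 the change was -0.29 without control library 1 and -1.18 without control library 2, where it was called.

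Insig1 and Stard4 were each called lower in 5 of 7 weeks, as was Srebf2, and 0.584% of the 12330 genes tested in every week were called lower in at least 5 weeks. Scap was called lower in 4 weeks, which 1.61% of those genes were in at least 4, and Mylip was called higher in 3 weeks, which 7.51% were in at least 3. The Insig1 change did not differ between weeks in the joint fit (F = 1.33, adjusted p = 0.511), with a mean of -1.42 over weeks 1 to 12 and -1.38 over weeks 16 to 48.

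Insig2 (ENSMUSG00000003721, chr1:121304353-121332589, minus strand), which encodes the second INSIG protein and is known in liver for an insulin-repressed transcript, had no common direction. It rose at week 16, where control libraries had 74.3, 99.2 and 129 FPM and LIDPAD libraries 162, 165 and 194 FPM (0.81 ± 0.17, adjusted p = 0.00426). At week 12 control had 193 and 194 FPM and LIDPAD 231 and 270 FPM, without a call (0.37 ± 0.12, adjusted p = 0.0691). At week 1 the order was the opposite, with 171 and 220 FPM in control and 141 and 165 FPM in LIDPAD (-0.34 ± 0.15, adjusted p = 0.324). The week 12 difference was called without control library 1 (0.36) or 2 (0.37). Groups overlapped at weeks 4, 8, 32 and 48, where at week 48 the change was -0.46 ± 0.27 and, without control library 2, -0.84 and called.

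At week 32 the LIDPAD libraries of Insig2 spread from 111 to 388 FPM, and the 2 highest, 317 and 388 FPM, were libraries 4 and 5, the pair that was much alike. Within the set that held 3 control and 3 LIDPAD libraries of that week the log2 change was -0.22, and between 1 control and those 2 LIDPAD libraries it was 1.10, a value with no test. The pooled value of 0.30 ± 0.35 therefore joined estimates of opposite sign. The -0.22 was not called (adjusted p = 0.617), so a difference in direction between the sets was not shown.

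The balance of the INSIG genes per length of exon moved toward Insig2. In control libraries Insig1 exceeded Insig2 everywhere, by a ratio of 1.19 to 7.48. In LIDPAD libraries the ratio was 0.406 to 1.84. The groups did not overlap at weeks 1, 4, 8, 12 and 16: at week 1 the ratio was 2.2 and 2.4 against 0.755 and 0.785, at week 12 2.19 and 3.18 against 0.558 and 0.614, and at week 16 5.07 to 7.48 against 0.794 to 1.53. At weeks 32 and 48 they overlapped, at 1.52 to 3.53 against 0.406 to 1.84 and at 1.68 to 4.49 against 1.51 to 1.76. This ratio was not tested either, and groups did not overlap for 42.1 to 57.6% of single genes at weeks 1 to 16.

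**Figure D3:**
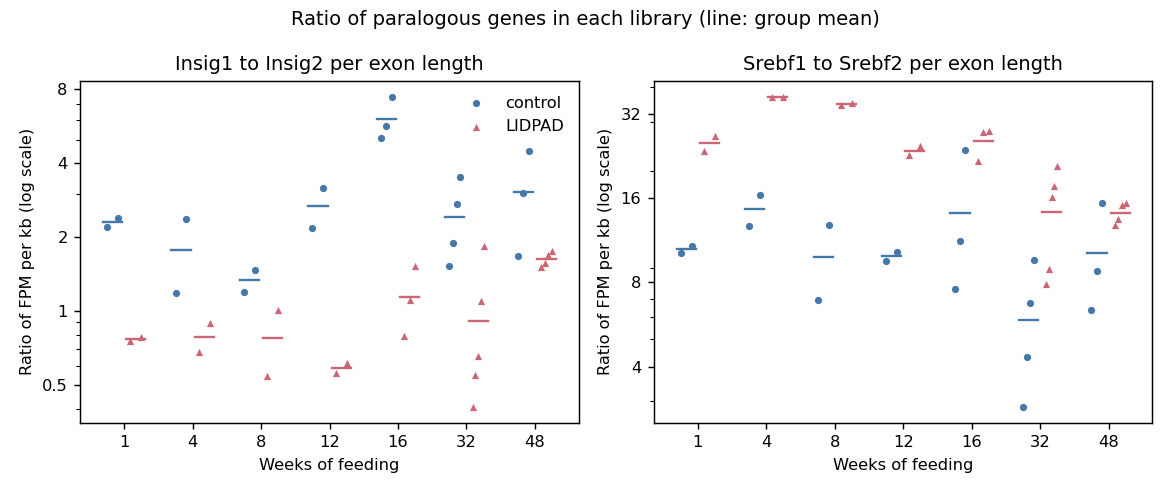
Ratio of Insig1 to Insig2 and of Srebf1 to Srebf2, each in FPM per kilobase of exon (log axis), in every library by weeks of feeding; circles are control, triangles LIDPAD, lines group means. The Insig1 to Insig2 ratio of LIDPAD libraries lies below that of control libraries through week 16, and the Srebf1 to Srebf2 ratio above it through week 12.

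Stard4 (ENSMUSG00000024378, chr18:33199355-33213862, minus strand), the sterol carrier, fell at weeks 1, 12, 16, 32 and 48. At week 1 control libraries had 59.9 and 72.0 FPM and LIDPAD libraries 21.8 and 33.4 FPM (-1.27 ± 0.20, adjusted p = 0.0291). At week 12 control had 81.4 and 102 FPM and LIDPAD 27.2 and 29.4 FPM (-1.67 ± 0.13, adjusted p = 0.000122). At week 16 control had 90.0, 91.9 and 132 FPM and LIDPAD 20.5, 28.3 and 35.2 FPM, a 3.72-fold difference (-1.89 ± 0.19, adjusted p = 4.91e-05). The gap at weeks 12 and 16 was thus wider than at week 1 in the fitted values, with no LIDPAD library above 35.2 FPM. The week 1 call was lost without either control library (-1.14 and -1.40).

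At week 32 control had 63.9, 76.6, 82.9 and 115 FPM and LIDPAD 9.08, 25.5, 26.5, 27.7 and 35.2 FPM (-1.84 ± 0.33, adjusted p = 0.00238). At week 48 control had 88.0, 103 and 121 FPM and LIDPAD 41.2, 42.2, 48.0 and 50.9 FPM (-1.18 ± 0.13, adjusted p = 0.00481). The groups did not overlap in any week, but week 4 came close, at 40.3 and 59.9 FPM against 39.3 and 39.9 FPM (-0.31 ± 0.20, adjusted p = 0.647), and week 8 was not called (-0.90 ± 0.22, adjusted p = 0.0633). A week 8 call appeared without control library 2 (-1.18), with DESeq2 (-0.92) and with the replicate number as a block. The lowest Stard4 value of all libraries, 9.08 FPM, and the lowest Insig1 value, 66.6 FPM, were in the same library, LIDPAD library 2 of week 32. The Stard4 change averaged -1.04 over weeks 1 to 12 and -1.64 over weeks 16 to 48, a difference of -0.60 ± 0.25 that did not pass the test (adjusted p = 0.0952). The test of any difference between weeks gave F = 2.87 (adjusted p = 0.13), and passed only without LIDPAD library 2 of week 32 (F = 4.52).

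Mylip (ENSMUSG00000038175, chr13:45389742-45412022, plus strand) was the only gene of the 7 that was called higher in more than 1 week. At week 1 control libraries had 7.47 and 8.08 FPM and LIDPAD libraries 7.75 and 7.86 FPM, and at week 4 they had 7.83 and 8.91 FPM and 6.63 and 8.97 FPM. Those LIDPAD libraries lay inside or around the control range. At week 8 control had 7.12 and 7.23 FPM and LIDPAD 10.4 and 11.2 FPM (0.56 ± 0.12, adjusted p = 0.0506), and at week 12 control had 7.62 and 8.28 FPM and LIDPAD 10.3 and 10.6 FPM (0.38 ± 0.14, adjusted p = 0.108). The groups of weeks 8 and 12 did not overlap, although neither week passed the threshold, week 8 doing so without control library 1 (0.55) or 2 (0.57).

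At week 16 control libraries had 8.38, 8.66 and 9.08 FPM and LIDPAD libraries 11.2, 14.1 and 14.8 FPM (0.58 ± 0.14, adjusted p = 0.0084). At week 32 control had 6.01, 6.06, 7.42 and 8.56 FPM and LIDPAD 10.9, 12.0, 14.2, 18.8 and 19.9 FPM (1.04 ± 0.20, adjusted p = 0.00324). At week 48 control had 5.35, 6.32 and 7.96 FPM and LIDPAD 12.7, 13.5, 14.0 and 14.7 FPM (1.03 ± 0.14, adjusted p = 0.0101). No control library of any week exceeded 9.08 FPM, and no LIDPAD library from week 8 on was below 10.3 FPM. Within the sets of week 32 the change was 1.21 (3 control and 3 LIDPAD libraries) and 0.86 (1 control and 2 LIDPAD libraries, no test).

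Mylip was also the only one of the 7 whose diet change differed between weeks in the joint fit (F = 6.13, adjusted p = 0.00952), where 10.7% of all genes tested were called. Its change averaged 0.21 over weeks 1 to 12 and 0.88 over weeks 16 to 48, a difference of 0.67 ± 0.14 (adjusted p = 0.0019, with 11.4% of all genes called higher in that contrast). Both calls held when any of the 38 libraries was left out. The early weeks all belong to 1 set of libraries, so duration and set cannot be told apart.

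Markers of recruited macrophages were called higher in LIDPAD livers from week 8 on, and Mylip from week 16 on. The summed level of 6 markers of recruited macrophages (Gpnmb, Trem2, Itgax, Ccr2, Cd9 and Lyz2) was 26.4 to 37.5 FPM in control and 36.6 to 72.1 FPM in LIDPAD libraries at week 1, 53.5 to 97.4 FPM and 33.5 to 43.3 FPM at week 4, and 35.1 to 37.8 FPM and 91.8 to 93.5 FPM at week 8. It was 34.2 to 62.3 FPM in control and 221 to 307 FPM in LIDPAD libraries at week 16, 38.3 to 72.2 FPM and 322 to 1264 FPM at week 32, and 50.3 to 196 FPM and 408 to 521 FPM at week 48. From week 8 to week 48, 5, 5, 6, 6 and 5 of these 6 markers were called higher and none lower. The share of all genes called higher was 3.85, 8.99, 16.3, 18.0 and 6.54% in those weeks. The sum of 6 Kupffer cell markers, of resident liver macrophages, had its own course. It was 121 to 137 FPM in control and 163 to 227 FPM in LIDPAD libraries at week 1, where Mylip differed by 0.01 on the log2 scale, and 212 to 268 FPM against 147 to 191 FPM at week 4. It was 121 to 133 FPM against 202 to 228 FPM at week 8, 136 to 169 FPM against 198 to 249 FPM at week 12, and 118 to 215 FPM against 228 to 375 FPM at week 16. At week 32 the groups overlapped (88.3 to 164 FPM against 114 to 1097 FPM), and at week 48 they did not (134 to 209 FPM against 272 to 385 FPM). Of the 6, 0, 0, 2, 2, 3, 2 and 2 were called higher from week 1 to week 48, and 1 was called lower at week 4 and at week 48. Among all genes, 0.726 and 0.121% were called higher at weeks 1 and 4, and 0.166 and 3.34% lower at weeks 4 and 48. The LIDPAD library with the most Mylip, 19.9 FPM at week 32, was also the one with the highest recruited macrophage sum, 1264 FPM. At week 48 the order was the opposite: LIDPAD library 1 had the highest such sum of its group, 521 FPM, and the least Mylip, 12.7 FPM. No marker of either list was at 0 throughout, and their part in the Mylip result was not tested.

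**Figure D4:**
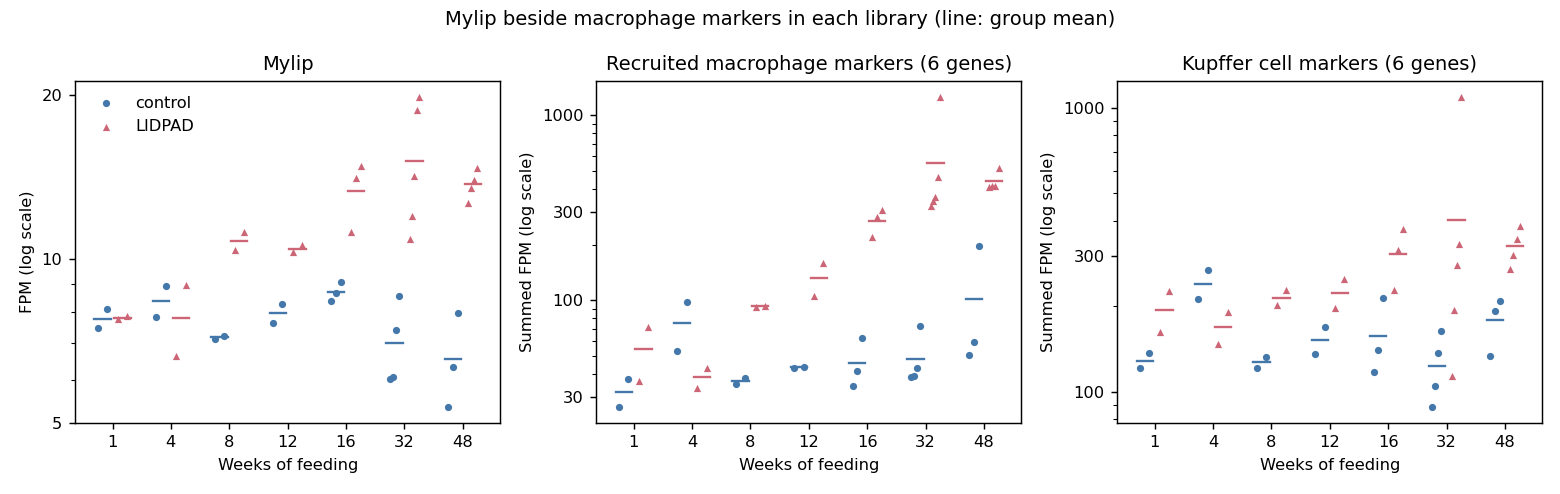
Mylip in FPM and the summed FPM of 6 recruited macrophage and 6 Kupffer cell markers (log axes) in every library, by weeks of feeding; circles are control, triangles LIDPAD, lines group means. In the first 2 panels the diets separate from week 8 on, with LIDPAD libraries above control libraries.

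Other cell type markers moved in the same weeks. Stellate cell markers (6 genes) summed to 287 to 351 FPM in control and 736 to 801 FPM in LIDPAD libraries at week 16, with 5 of 6 called higher. Bile duct markers (4 genes) reached 13.0 to 56.5 FPM in LIDPAD libraries at week 32 against 4.44 to 9.2 FPM, with 3 called higher. Lymphocyte markers (5 genes) reached 4.8 to 17.0 FPM against 1.22 to 3.28 FPM at week 32, with 1 called higher. Among all genes, 8.99, 16.3 and 18.0% were called higher at weeks 12, 16 and 32. Of the adipocyte markers (4 genes), 1 passed the filter in each week, and Lep was at 0 in most weeks. Their sum was 2.26 to 2.82 FPM in control and 12.6 to 13.2 FPM in LIDPAD libraries at week 16. At week 32 it was 1.38 to 5.45 FPM and 15.0 to 43.9 FPM. The 1 tested marker was called higher at weeks 12, 16 and 32. At week 48 the sum was 1.55, 2.92 and 36.9 FPM in control and 10.8 to 16.7 FPM in LIDPAD libraries, without a call. The 36.9 FPM was in control library 3. That library also had the highest bile duct (19.5 FPM) and recruited macrophage (196 FPM) sums of the week 48 controls. The endothelial markers (5 genes) lay between 119 and 220 FPM in both diets. Their sum was lower in LIDPAD libraries without overlap at week 12 (163 to 168 against 178 to 183 FPM) and week 16 (186 to 200 against 206 to 220 FPM). It was higher at week 48 (180 to 199 against 161 to 176 FPM). Of the 5, 1 was called higher at weeks 8, 16 and 32, and 1 lower at weeks 12 and 16. Erythroid markers (3 genes) had no call in any week. In LIDPAD library 1 of week 32 their sum was 1221 FPM, against 203 to 242 FPM in the other LIDPAD libraries of that week. That library also had the hepatocyte sum of 111889 FPM. The part of these cell type markers in the 7 genes was not tested either.

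Compared per kilobase of exon, the genes differed widely in level. Over the 18 control libraries Insig1 was highest, with a median of 122 FPM per kb (65.9 to 210), followed by Insig2 at 52.8 (21.4 to 82.5) and Srebf1 at 40.5 (14.9 to 83.7). Stard4 had 14.8 (7.21 to 23.7), Scap 10.9 (5.02 to 18.4), Srebf2 4.23 (2.52 to 6.61) and Mylip 2.39 (1.65 to 2.81). Over all weeks the ranges of neighbours in this order overlapped, although Insig1 was above Insig2 within each of the 18 control libraries. Over the 20 LIDPAD libraries the medians were 51.8 for Srebf1, 47.7 for Insig1, 47.6 for Insig2, 5.71 for Stard4, 5.34 for Scap, 3.59 for Mylip and 2.70 for Srebf2. Insig1 thus moved from clearly first to the level of Srebf1 and Insig2, and Mylip and Srebf2 changed places.

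**Figure D5:**
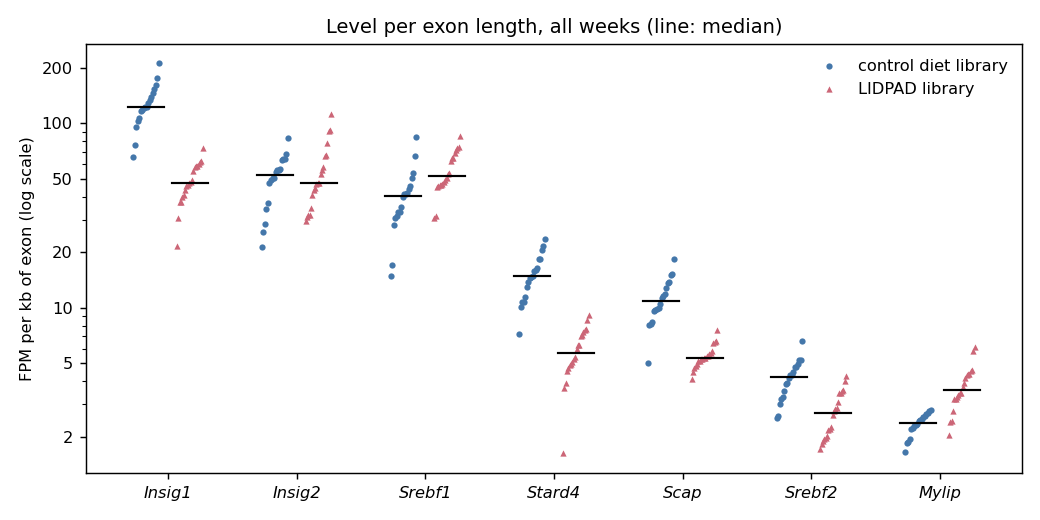
Level of each gene in FPM per kilobase of exon (log axis) in the 18 control (circles) and 20 LIDPAD (triangles) libraries of all weeks; lines are medians. Insig1 has a median of 122 in control and 47.7 in LIDPAD libraries.

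Genes that the SREBPs are known to drive were read beside their regulators. Of 20 enzymes of sterol synthesis, 17, 5, 9, 19, 19, 19 and 17 were called lower from week 1 to week 48 and none higher, with medians of -2.0, -1.48, -1.70, -2.02, -2.24, -1.70 and -1.39. The share of all genes called lower was 1.27, 0.166, 1.75, 6.25, 12.0, 8.82 and 3.34% in those weeks. Idi1, the isomerase that forms dimethylallyl diphosphate, fell from a control mean of 94.5 to 8.73 FPM at week 1 (-3.35 ± 0.14, adjusted p = 0.000425) and from 158 to 11.9 FPM at week 12 (-3.69 ± 0.14, adjusted p = 3.91e-06). Sqle, which oxidises squalene, was among the enzymes with the smallest p at week 4 (43.2 against 3.25 FPM, -3.50 ± 0.27, adjusted p = 0.0227), a week in which none of the 7 regulators was called. Cyp51, the lanosterol demethylase, had 142 against 28.5 FPM at week 48 (-2.31 ± 0.13, adjusted p = 0.000363). The enzymes' medians were lower than those of the 7 genes in every week.

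Many targets of SREBP-1c in fatty acid synthesis were lower in LIDPAD livers in some weeks. Of 14 such genes, 6, 3, 1, 10, 8, 9 and 0 were called lower from week 1 to week 48. Among all genes, 1.27, 0.166, 1.75, 6.25, 12.0, 8.82 and 3.34% were called lower in those weeks. Only Scd1 was called higher, at week 16, where 16.3% of all genes were. The medians of the 14 genes were -1.43, -0.78, -1.13, -0.84, -0.80, -1.13 and -0.41. At week 8, the week in which Srebf1 was called higher, Acss2 had 341 FPM in control and 56.7 FPM in LIDPAD livers (-2.35 ± 0.46, adjusted p = 0.0396). Acss2 encodes the cytosolic acetyl-CoA synthetase. At week 32 Acly, the ATP-citrate lyase, had 625 against 198 FPM (-1.66 ± 0.37, adjusted p = 0.00695). Fasn, Acaca, Me1, Elovl6, Fads1 and Gpam were each called lower in 3 weeks, and Elovl5, Fads2, Thrsp and Scd1 in none.

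Genes that move, cleave or degrade SREBPs, SCAP and INSIGs were read in the same way. Of 18 such genes, 0, 0, 1, 1, 3, 0 and 1 were called higher and 0, 0, 0, 0, 0, 3 and 1 lower from week 1 to week 48. Their medians lay between -0.10 and 0.07. Of all genes tested, 1.99, 0.287, 5.6, 15.2, 28.2, 26.9 and 9.87% were called in those weeks, in either direction. The site-1 and site-2 proteases Mbtps1 and Mbtps2 were called in no week. Rnf145, a ubiquitin ligase that acts on SCAP, was called higher in 3 weeks, for example at week 8 (11.7 against 22.3 FPM, 0.90 ± 0.17, adjusted p = 0.0357). Sec24a, a coat protein of the vesicles that leave the endoplasmic reticulum, fell at week 32 (134 against 76.2 FPM, -0.82 ± 0.13, adjusted p = 0.00107).

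Of 16 other sterol carriers, esterifying enzymes and lipoprotein receptors, 1, 0, 1, 2, 4, 4 and 3 were called higher and 0, 0, 0, 3, 4, 3 and 3 lower from week 1 to week 48, with medians between -0.08 and 0.11. At week 16, 4 higher and 4 lower of the 16 stood against 28.2% of all genes called, and at week 32, 4 higher and 3 lower against 26.9%. Stard3 and Stard5, relatives of Stard4 by their sterol-binding domain, were called in no week. Gramd1b, another protein that moves cholesterol from the plasma membrane, rose instead, for example from 2.66 to 20.2 FPM at week 32 (2.59 ± 0.31, adjusted p = 0.000228). Soat1, which esterifies cholesterol, rose from 6.66 to 30.7 FPM in that week (1.96 ± 0.33, adjusted p = 0.0017). Gramd1c fell at week 48 (41.0 against 24.7 FPM, -0.72 ± 0.12, adjusted p = 0.0164).

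LXR, the receptor known to induce Mylip, was followed through 10 genes of the receptor, its partner and its targets. Of these, 2, 0, 3, 3, 2, 4 and 4 were called higher and 0, 0, 0, 1, 1, 1 and 0 lower from week 1 to week 48. Their medians lay between 0.09 and 0.28. Of all genes tested, 0.726, 0.121, 3.85, 8.99, 16.3, 18.0 and 6.54% were called higher in those weeks. Abcg5, a part of the sterol exporter into bile, had 32.8 FPM in control and 127 FPM in LIDPAD livers at week 1 (1.94 ± 0.09, adjusted p = 0.000518), a week at which Mylip was level. Abcg1, another sterol exporter that macrophages express strongly, had 6.33 against 15.8 FPM at week 8 (1.25 ± 0.12, adjusted p = 0.00491) and 6.63 against 54.1 FPM at week 32 (2.62 ± 0.42, adjusted p = 0.00122). The receptor genes Nr1h2 and Nr1h3 were called in no week. The part of LXR in the Mylip result was not tested.

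The genes most like each of the 7 were found over the 38 libraries, as Pearson's r of log2(FPM + 0.5) after the mean of the week was taken off, among 10954 genes. The libraries share diet and depth, so r is given as a description. Insig1 was most like Cyp51, Pmvk (r = 0.96 for both) and Nsdhl (0.95), Stard4 most like Tm7sf2 (0.96) and Hsd17b7 (0.95), and Srebf2 most like Dhcr7 (0.92), Sqle and Idi1 (0.89 for both), all of them enzymes of sterol synthesis. Scap was most like Hgfac and Slc29a1 (0.93 for both) and Tecr (0.92). Mylip was most like Unc93b1, Arhgap30 and Zeb2 (0.90 for each). Insig2 (Kpnb1 at 0.84, Tubb2a at 0.80 and Mal2 at 0.79) and Srebf1 (Rps6ka1 at 0.78, Mras at 0.75 and Tmem134 at 0.73) had the weakest likenesses. Among the 7 themselves, r was 0.77 to 0.91 between any pair of Srebf2, Scap, Insig1 and Stard4, highest for Insig1 with Stard4, and -0.59 to -0.77 between Mylip and each of these 4.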

How the data were processed

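Per the labels' protocols, RNA was extracted with TRIzol and columns. The deposited unit is signal: FPM, read counts per gene after division by size factors, in 7 tables with 152 columns. The submitters' processing notes list HISAT2, featureCounts, DESeq2 and GRCm38; versions, annotation and strand setting are not given in the sources used here. Within 0.02 reads, 100% of deposited values were whole multiples of their column's smallest value, taken as 1 read. In 4 columns that step was 0.0992 to 0.101 FPM, too close to a decimal step to be told from one; they were used in the same way. Columns with a chi-square per gene under 2.5 (genes of 200 to 2000 pooled reads) were merged, and their mean is a library's FPM. Values of 2 reads outnumbered values of 1 by 5.35 to 1, so reads came mostly in pairs, which sets the precision.

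Weekly fits used limma 3.58.1 in R 4.3.3 on log2(FPM + 0.5), two-sided, with a mean-variance trend and Benjamini-Hochberg adjustment, for genes reaching 1 FPM in at least the smaller group's number of libraries; a fold on this scale understates the change of low genes. A joint fit of 14 groups (16439 genes) tested differences between weeks. edgeR 4.0.16 and DESeq2 1.42.0 were alternatives on recovered reads. The weekly limma fit was tested on simulated reads, and the joint, edgeR and DESeq2 fits were not. Levels per kb used exon lengths of GENCODE M21 (GRCm38). Genes, lists and markers were chosen with earlier results of these data known. Named list genes are the 2 with the smallest p per list and week, plus some named after their counts were seen. Some genes that the rules would name are not reported here. The splits of week 32 by set, and its LIDPAD libraries 4 and 5 counted as 1, were chosen after seeing the data.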

Additional observations from a re-analysis of the deposited data

Results flagged for a closer look

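Mylip was the 1 gene of the 7 whose change with LIDPAD differed between feeding durations by a test of the difference itself (limma F test over 7 weeks, adjusted p = 0.00952). The log2 change was 0.01 at week 1, -0.11 at week 4, 0.56 at week 8, 0.38 at week 12, 0.58 at week 16, 1.04 at week 32 and 1.03 at week 48. The cause was not tested. In 21 sets of values, those of the 7 genes in the groups of 4 or 5 libraries, 0 held a library set apart from the rest, where chance gives about 1 in 20.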

How the results depend on the processing

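All 24 calls kept their sign under 10 other settings and every left-out library; 13 stayed called in all of these and 17 in all fits without a library. The number of genes called went to 1 at week 1 and 1 at week 8 without the mean-variance trend and in the joint fit. With DESeq2 it went to 5, 2, 6 and 5 at weeks 1, 4, 8 and 48. Replicate numbers did not pair the libraries (correlations of same-numbered libraries -0.116 to 0.123), and with the replicate block 2 genes were called at week 4 and 0 at week 48. Leaving out 1 library gave 1 to 5, 0 to 2, 0 to 6, 4 to 6, 5 to 7, 4 to 5 and 3 to 5 called genes from week 1 to week 48, 1 to 2 for differences between weeks and 1 to 1 for late against early weeks. The second gene, Stard4, appeared without LIDPAD library 2 of week 32. Where a fit left 1 library in a group, that library is assumed to vary like the others. The cause was not tested.

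Signs changed only for values that were not called. Mylip at week 1 went to 0.0 with edgeR and ran from -0.05 to 0.06 (0.0 without LIDPAD library 1) as libraries were left out, and at week 4 it ran from -0.31 to 0.10. Insig2 ran from -0.43 to 0.16 at week 4 and from -0.22 (or -0.19) to 0.43 at week 8, and went to -0.22 in a single set of week 32. Srebf1 ran from -0.04 to 0.45 at week 48. The late minus early difference of Scap went to 0.04 on rescaling, and that of Insig1 ran from -0.06 to 0.16 as libraries were left out. Shallow libraries at week 32 limit low genes such as Mylip, whose smallest count was 58 reads.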
